A study of Mus musculus with 20 samples.

Results

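The 5S and 5.8S ribosomal RNAs were followed in small RNA sequencing of cauda epididymosomes, the extracellular vesicles of the fluid in the last segment of the epididymis. The members were the rows whose name begins with n-R5 (n-R5s for 5S, n-R5-8s for 5.8S) and whose mean count was 5 or more over the 10 libraries of the table labelled without size selection, called here the without-selection table. There were 8 of them, 7 for 5S and 1 for 5.8S, out of 237 n-R5 rows and 59035 rows in that table. The same 8 rows were followed in the table labelled as sequenced after size selection, the with-selection table, which held 262 n-R5 rows and 72034 rows. The members were thus chosen by their counts in the without-selection table, and their levels are given as a description.

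The MSUS group held 5 males of 9 months whose litters went through unpredictable maternal separation, 3 h per day over the first 14 days of life, while their dams were put under forced swim or restraint at times that could not be foreseen. The Control group held 5 males of the same age from litters left undisturbed. In both groups the vesicles were the ultracentrifuge pellet left after sperm had been removed by swim-up, and the 10 NEBNext small RNA libraries were sequenced in 2 runs that gave 1 table each. MSUS animals are numbered 2, 4, 6, 8 and 14, and Control animals 3, 5, 7, 9 and 11. The mouse strain and the litter of each male are not stated in the labels, and the p-values reflect the spread among these 10 males only.

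5S and 5.8S rRNA are the small RNAs of the large ribosomal subunit. 5.8S rRNA is cut from the long precursor that also yields the 18S and 28S rRNAs and pairs with the 28S rRNA. 5S rRNA is made apart from it, by RNA polymerase III from tandem gene repeats, and enters the subunit as a particle with the ribosomal proteins Rpl5 and Rpl11. Fragments of both are common in small RNA libraries of sperm and extracellular vesicles, and mammalian genomes also carry many dispersed 5S copies, most of them pseudogenes.

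The rows that held most 5S counts are named for dispersed copies and not for the tandem repeat. In the GENCODE annotation of GRCm38, 180 genes are named n-R5s, and 32 annotated 5S genes on chromosome 8, between 123538786 and 123622046, share 1 sequence of 119 bases, among them n-R5s100 (chr8:123538786-123538904, minus strand). The deposited row that joins these copies, with 33 names and 2 distinct sequences among them, held 1 count over the 10 libraries of each table. The member genes were compared with the tandem sequence on their own strand, from the GENCODE transcripts, because the bases that differ are what lets a short read be placed on one copy.

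n-R5s151 (chr7:16471813-16471931, plus strand) lies within Npas1, on the opposite strand, and differs from the tandem sequence at 5 bases. n-R5s194 (chr3:4338998-4339116, plus strand) overlaps no other gene and also differs at 5 bases, all in its first 47. RefSeq lists n-R5s151 and n-R5s194 as rRNA genes, and n-R5s71 (chr11:74319792-74319910, plus strand, 6 differences), n-R5s210 (chr1:37005439-37005557, plus strand, 10 differences) and n-R5s5 (chrX:18323444-18323562, minus strand, 11 differences) as pseudogenes. The other 3 5S genes are shorter and more diverged: n-R5s52 (chr13:14118743-14118855, minus strand, opposite to Arid4b) has 113 bases, n-R5s62 (chr12:82150468-82150563, plus strand) 96 and n-R5s56 (chr13:103396202-103396306, plus strand) 105, with identities to the tandem sequence of 76.7, 74.8 and 79.8%. The 133 n-R5s genes outside chromosome 8 had a median identity of 75% to it.

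**Figure D1:**
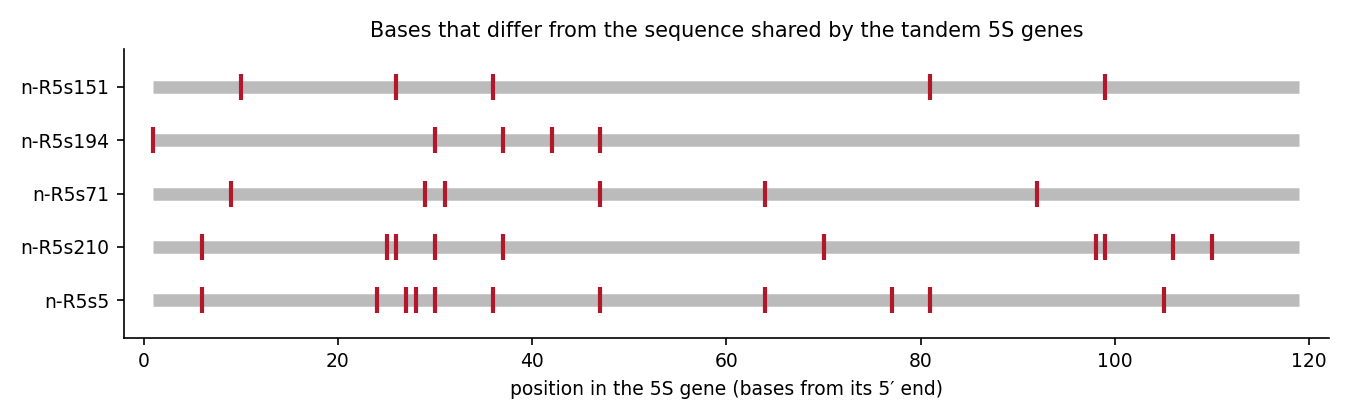
Positions in the 5 full-length 5S member genes (grey bars, 119 bases each; horizontal axis, bases from the 5′ end) at which the gene differs from the sequence of the tandem copies (red ticks). n-R5s151 and n-R5s194 have 5 differences each, those of n-R5s194 all lie in its first 47 bases, and n-R5s5 has 11.

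These differences limit what a row can show. Of the 98 windows of 22 bases in each full-length gene, 49 in n-R5s151, 48 in n-R5s5, 58 in n-R5s210, 39 in n-R5s71 and 19 in n-R5s194 occur in no other annotated rRNA gene. Of the 98 in n-R5s194, 58 are also in the tandem sequence. n-R5s5 and n-R5s52 are joined in 1 row, n-R5s5_n-R5s52, although their sequences differ, so its counts cannot be split between them. n-R5-8s1 (chr18:73533403-73533550, minus strand, 148 bases) is the only gene named as 5.8S among the 354 rRNA genes of the annotation. Genes of this kind were sought by name only. None of the 127 windows of n-R5-8s1 is in another of the 354 genes.

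A second kind of row, which carries the type rRNA in its name and mostly holds fractions of counts, held more counts for the tandem copies. The 32 such rows of the tandem copies summed to 1801 counts over the 10 libraries of the with-selection table and to 109 over the 10 of the without-selection table. For comparison, n-R5s151 alone held 2731 counts in the with-selection table and 3121 in the other. Of all 5S counts, typed rows included, the 7 members held 45.7 to 65.5% in a library of the with-selection table and 80.8 to 92.7% in the without-selection table. The labels do not state how reads were divided between the 2 kinds of row.

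Library totals ran from 1872084 to 3647956 estimated counts in the with-selection table and from 215231 to 871461 in the other. miRNAs took 10.9 to 17.0% of counts in the first and 52.4 to 72.2% in the second, although the labels describe the size selection as one for miRNAs, so any direction between tables refers to their labels. In the with-selection table Control 9, Control 11 and MSUS 14 stood apart, with 14.5 to 25.3% of counts on tRNA against 34.6 to 66.0% in the other libraries. Markers of the epididymal epithelium such as Crisp1 were present: 16 of the 18 had a row and their sum ranged from 917 to 4055 CPM, counts scaled to a common library total, in MSUS and from 2632 to 6102 in Control libraries, with no counts for Lcn9 and Defb15. The 12 sperm and spermatid markers summed to 231 to 512 CPM in MSUS and 279 to 505 in Control libraries, the 10 blood markers to 46.1 to 189 and 110 to 263, the 10 muscle and stroma markers to 170 to 1181 and 353 to 1152, and the 7 vesicle membrane genes to 65.6 to 292 and 160 to 347. Of the 18 epithelial markers 12 had a row in the without-selection table, where their sum ranged from 802 to 1612 CPM in MSUS and from 1363 to 2252 in Control libraries. Their part in the rRNA results was not tested.

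5.8S rRNA was the most abundant member in every library. n-R5-8s1 had 6482, 11041, 13434, 5396 and 8218 CPM in MSUS animals 2, 4, 6, 8 and 14 in the with-selection table, against 11825, 16081, 7096, 4932 and 6543 CPM in Control animals 3, 5, 7, 9 and 11. The groups overlapped throughout, with the highest and the lowest library both in Control. In the without-selection table it had 20448, 22712, 5208, 21029 and 7946 CPM in MSUS libraries, against 12449, 15337, 21776, 9704 and 2646 CPM in Control libraries. Here MSUS 2, 4 and 8 and Control 7 were the high libraries, and Control 11 and MSUS 6 the low ones, so that the groups again overlapped.

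The best counted 5S rows were n-R5s5_n-R5s52 and n-R5s151, at similar levels. In the with-selection table n-R5s151 had 141, 97.9, 145, 91.7 and 75.9 CPM in MSUS libraries, against 115, 183, 153, 62.2 and 51.0 CPM in Control libraries. The groups overlapped, and Control 9 and Control 11 were the lowest of the 10. In the without-selection table n-R5s151 had 3410, 909, 469, 1419 and 315 CPM in MSUS libraries, against 699, 676, 1450, 362 and 127 CPM in Control libraries. MSUS 2 stood highest, with 734 counts, and Control 11 lowest, with 111.

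n-R5s5_n-R5s52 followed the same order of libraries closely. It had 106, 109, 148, 82.3 and 60.1 CPM in MSUS libraries of the with-selection table, against 112, 204, 154, 67.3 and 66.3 CPM in Control libraries. The without-selection table gave 2792, 1279, 639, 1318 and 300.1 CPM in MSUS libraries, against 702, 891, 1699, 435 and 161 CPM in Control libraries. MSUS 2 was again the highest and Control 11 the lowest in the second table. MSUS 2 also had the smallest library total of that table, 215231 estimated counts, and Control 11 the largest, 871461.

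n-R5s194, identical to the tandem sequence over its last 72 bases, came next. It had 29.3, 17.98, 26.9, 23.2 and 11.7 CPM in MSUS libraries of the with-selection table, against 18.7, 26.2, 33.5, 15.1 and 16.7 CPM in Control libraries. Its levels in the without-selection table were 335, 91.2, 57.4, 182 and 43.5 CPM in MSUS libraries, against 68.8, 59.4, 143, 44.5 and 9.18 CPM in Control libraries. The groups overlapped in both tables.

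The other 4 members rested on few counts, with means of 4.4 to 12.8 counts per library in the with-selection table and 5.8 to 11.5 in the without-selection table. n-R5s210 had 18, 11, 16, 21 and 9 counts in MSUS libraries of the with-selection table, against 8, 11, 12, 13 and 9 counts in Control libraries. In CPM these were 3.11 to 8.12 in MSUS and 2.47 to 5.88 in Control libraries, which overlap, with MSUS 14 below 4 of the 5 Control libraries. n-R5s62 ranged from 2 to 8 counts in MSUS and 2 to 9 in Control libraries of that table, n-R5s56 from 0 to 9 and 2 to 11, and n-R5s71 from 2 to 21 and 5 to 10. In the without-selection table, n-R5s210 ranged from 9 to 27 counts in MSUS and 3 to 14 in Control libraries, n-R5s62 from 3 to 18 and 1 to 12, n-R5s56 from 2 to 19 and 1 to 9, and n-R5s71 from 4 to 21 and 1 to 7. n-R5s71 and n-R5s56, with means of 5.8 and 6.1 counts, lay just inside the threshold, and n-R5s47 and n-R5s25, with 4.9 and 4.7, just outside. n-R5s41, a pseudogene inside Pheta2 and Smdt1 on their strand, was also left out, with a mean of 2.5 counts in the table that set the rule but 48.5 (19 to 76) in the with-selection table.

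**Figure D2:**
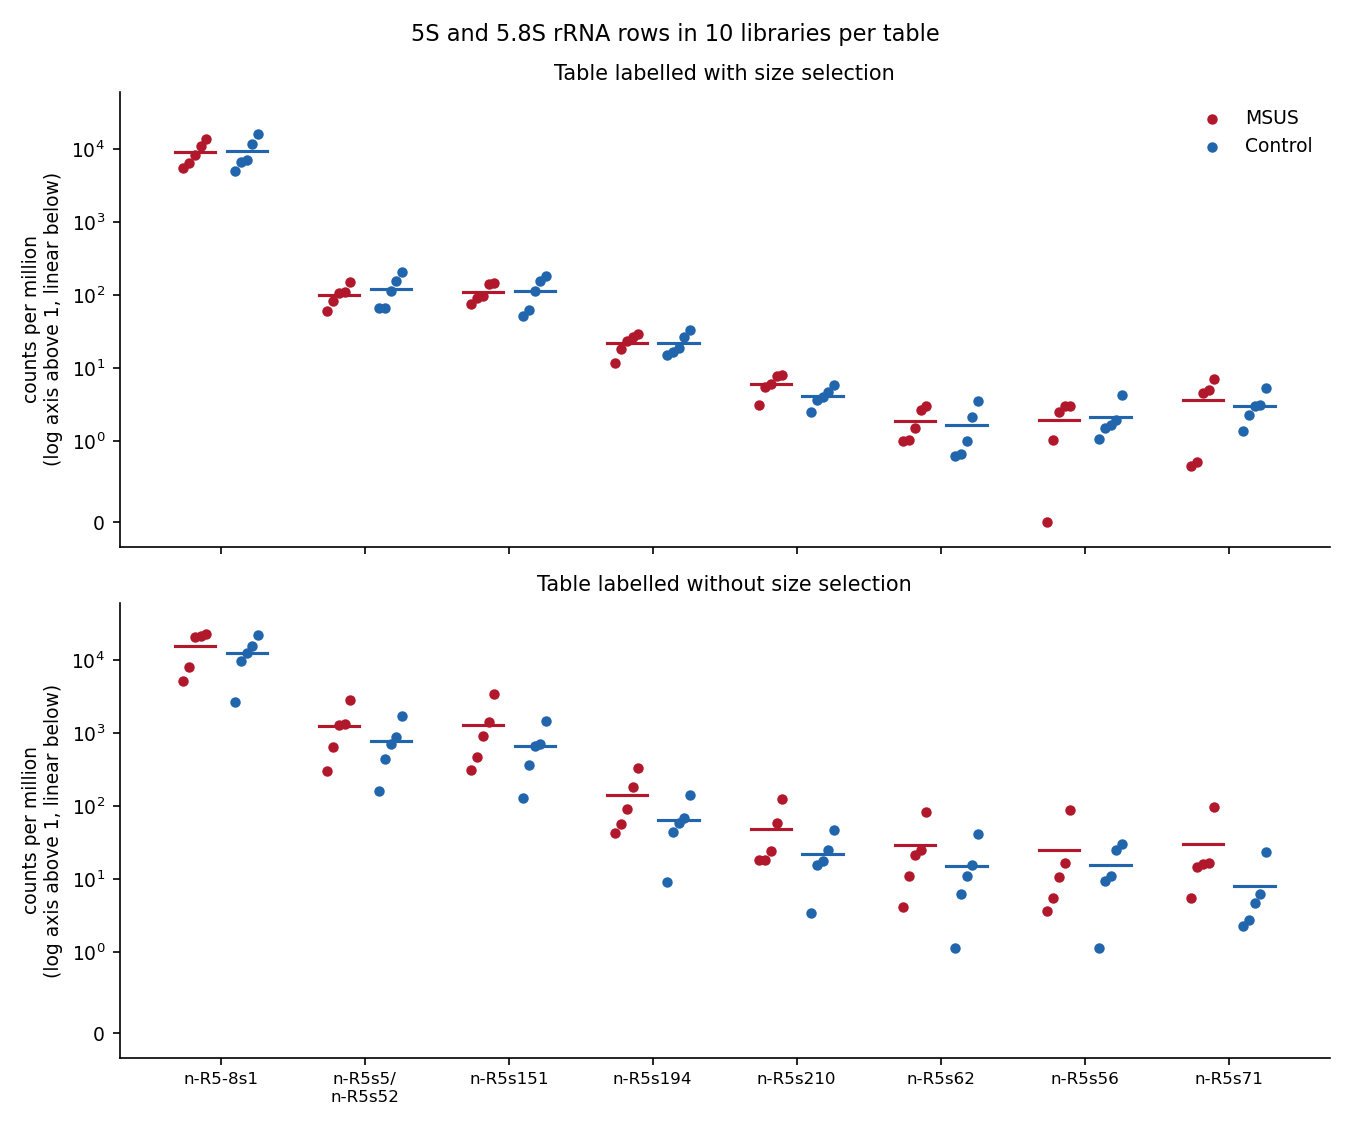
CPM of the 8 member rows (vertical axis, logarithmic above 1 and linear below) in the 5 MSUS (red, left of each pair) and 5 Control libraries (blue, right) of each table. Points are libraries and bars group means. The groups overlap for all 8 rows in both tables, and the 5S rows lie higher in the without-selection table.

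MSUS was then compared with Control across all rows of each table, which asks whether stress in early life is linked to the amount of these fragments in vesicles of the adult. No 5S or 5.8S row passed the test in either table. edgeR's quasi-likelihood test with Benjamini-Hochberg adjustment called 0 of 10998 rows tested in the with-selection table (0% called, 635 at an unadjusted p below 0.05). DESeq2 called 33 rows there, no member among them, but gave no adjusted p for n-R5s194 and n-R5s210, so these could not be called. For n-R5s210 its log2 fold change was 1.37 (SE 0.50, unadjusted p = 0.00563 by DESeq2). In the without-selection table, both tools called 0 of 1075 rows (0% called; 85 at an unadjusted p below 0.05 by edgeR and 99 by DESeq2). The filter on low counts kept 5 of the 8 members in the first table and 4 in the second. No member had groups that did not overlap as shares of the library total, against 3.68% of all rows tested in the with-selection table and 5.3% in the other. In bulk vesicle RNA, fewer vesicles and less RNA per vesicle cannot be told apart.

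Under TMM scaling the fitted values of the members kept were positive, and 4 of the 5 in the with-selection table turned negative under the library total. For 5.8S rRNA the log2 fold change in the with-selection table was 0.55 (SE 0.43, adjusted p = 0.919 by edgeR), and in the without-selection table also 0.55 (SE 0.56, adjusted p = 0.747 by edgeR). n-R5s151 had 0.61 (SE 0.49, adjusted p = 0.924 by edgeR) in the first table and 1.18 (SE 0.74, adjusted p = 0.593) in the second. These differences are under 2 SE.

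n-R5s5_n-R5s52 had log2 fold changes of 0.41 (SE 0.49) in the with-selection table and 0.91 (SE 0.68) in the without-selection table. n-R5s194 had 0.69 (SE 0.49) in the first table and 1.38 (SE 0.74) in the second. The adjusted p of these 2 rows ranged from 0.558 to 0.974 by edgeR. n-R5s210, tested in the with-selection table, had the smallest p of the members there: a log2 fold change of 1.24 (SE 0.52, unadjusted p = 0.0357, adjusted p = 0.839 by edgeR). Fitted without the filter on low counts, over 61275 rows, it had 1.17 (SE 0.26, adjusted p = 0.0175 by edgeR), 1 of 48 rows called, so that its call depends on the filter. Over its alternatives the adjusted p of n-R5s210 ranged from 0.0175 to 1.00.

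The sign of these values in the with-selection table depended on the scaling. The median log2 fold change of the 5 members tested was 0.61 with TMM, against 0.00 for all rows, and -0.04 with the library total alone, against -0.58 for all rows. Under the library total n-R5-8s1, n-R5s5_n-R5s52, n-R5s151 and n-R5s194 had -0.07, -0.26, -0.04 and -0.02, and n-R5s210 had 0.57. Relative to the median of all rows the members' median was 0.61 with TMM and 0.54 with the library total. The members' median in the without-selection table was 1.04 with TMM, against 0.01 for all rows, and 0.80 with the library total, against -0.30. In the with-selection table fragments of protein-coding transcripts took 15.4 ± 6.4% of counts in MSUS and 23.7 ± 5.0% in Control libraries (SD, n = 5 each), and tRNA 44.5 ± 15.5% and 31.2 ± 11.5%. Their part in the result was not tested.

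**Figure D3:**
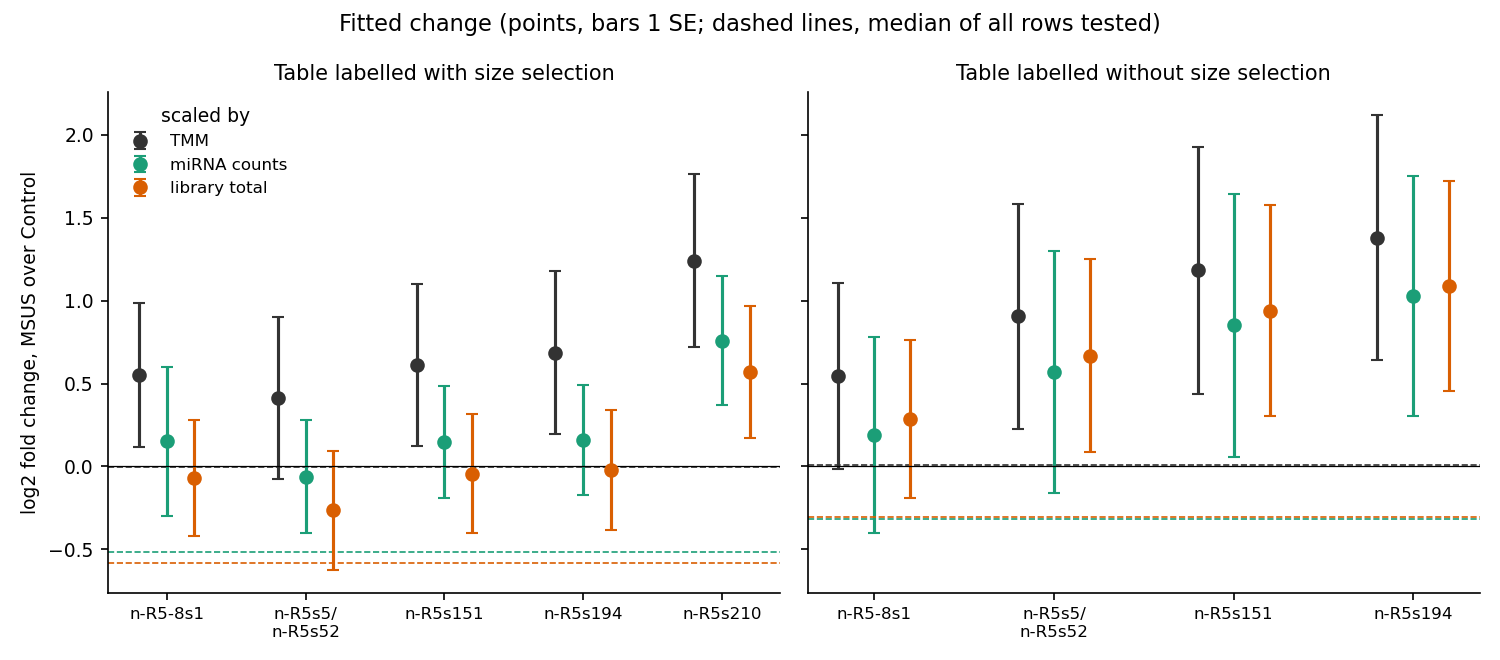
Log2 fold changes of MSUS over Control (vertical axis; points with bars of 1 SE) for the members kept by the filter in each table, under 3 scalings: TMM, TMM on miRNAs with the miRNA total, and the library total. Dashed lines give the median of all rows tested. In the with-selection table, under the library total, 4 of the 5 members turn negative, but all stay above the median of all rows, which falls to -0.58.

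Single libraries moved the 5S values. Without MSUS 2, the log2 fold change in the without-selection table was 0.46 for n-R5s151, 0.40 for n-R5s5_n-R5s52 and 0.78 for n-R5s194. Without Control 7 the same rows had 1.77, 1.49 and 1.96 there. Without Control 9, Control 11 and MSUS 14 together, n-R5-8s1 had 0.18 in that table and 0.30 in the with-selection table, and n-R5s5_n-R5s52 had 0.54 and 0.17. No member passed the adjusted threshold in any of these fits.

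The balance of 5S against 5.8S rRNA does not depend on scaling, as both are read in the same library. The log2 ratio of all 5S to all 5.8S counts was -4.28 ± 0.60 in MSUS and -4.40 ± 0.53 in Control libraries (SD, n = 5 each) of the with-selection table. It was -2.47 ± 0.79 in MSUS and -2.88 ± 0.27 in Control libraries of the without-selection table. The groups overlapped in both tables. The difference in the second table, 0.41, was below the SD of the MSUS libraries but above that of the Control libraries, and was not tested. MSUS 2 and MSUS 6 had the highest ratios there, -1.45 and -1.92, and MSUS 14 the lowest, -3.35. Without MSUS 2 the difference was 0.16.

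The tables differed more in 5S than in 5.8S rRNA. The 5S rows together took 0.0258 to 0.0653% of counts in the with-selection table and 0.0378 to 0.748% in the without-selection table, and were lower in the first in 10 of 10 animals, with a median ratio of with-selection over without-selection CPM of 0.239. Within the with-selection table Control 9, Control 11 and MSUS 14 held the lowest 5S shares, 0.0258 to 0.0262%, against 0.0393 to 0.0653% in the other 7 libraries. The 5.8S rows took 0.493 to 1.61% in the with-selection table and 0.265 to 2.27% in the without-selection table, and were lower in the first table in 6 of 10 animals. n-R5s5_n-R5s52, n-R5s151, n-R5s210 and n-R5s62 were lower in the with-selection table in 10 of 10 animals, and n-R5s194, n-R5s56 and n-R5s71 in 9 of 10. These rows were picked by their counts in the without-selection table, which favours lower levels in the other, so these tallies are description only. n-R5s41, left out by that rule, had means of 48.5 counts in the with-selection table and 2.5 in the without-selection table. The raw counts of the 2 leading 5S rows were close in the 2 tables, at means of 270 and 273 counts in the with-selection table and 340 and 312 in the other, at the library totals given above.

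Per base of gene length, 5.8S counts were 9.43 to 25.6 times 5S counts (median 18.7) in the with-selection table and 2.20 to 8.18 times (median 5.75) in the without-selection table. The 2 ranges do not overlap. The typed 5S rows, which include those of the tandem copies, took 20.04 to 41.9% of 5S counts in the with-selection table and 1.02 to 12.3% in the without-selection table. Their counts averaged 307 per library in the with-selection table and 31.5 in the without-selection table. As shares of the library total these typed rows were higher in the with-selection table, opposite to the sum of all 5S rows.

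**Figure D4:**
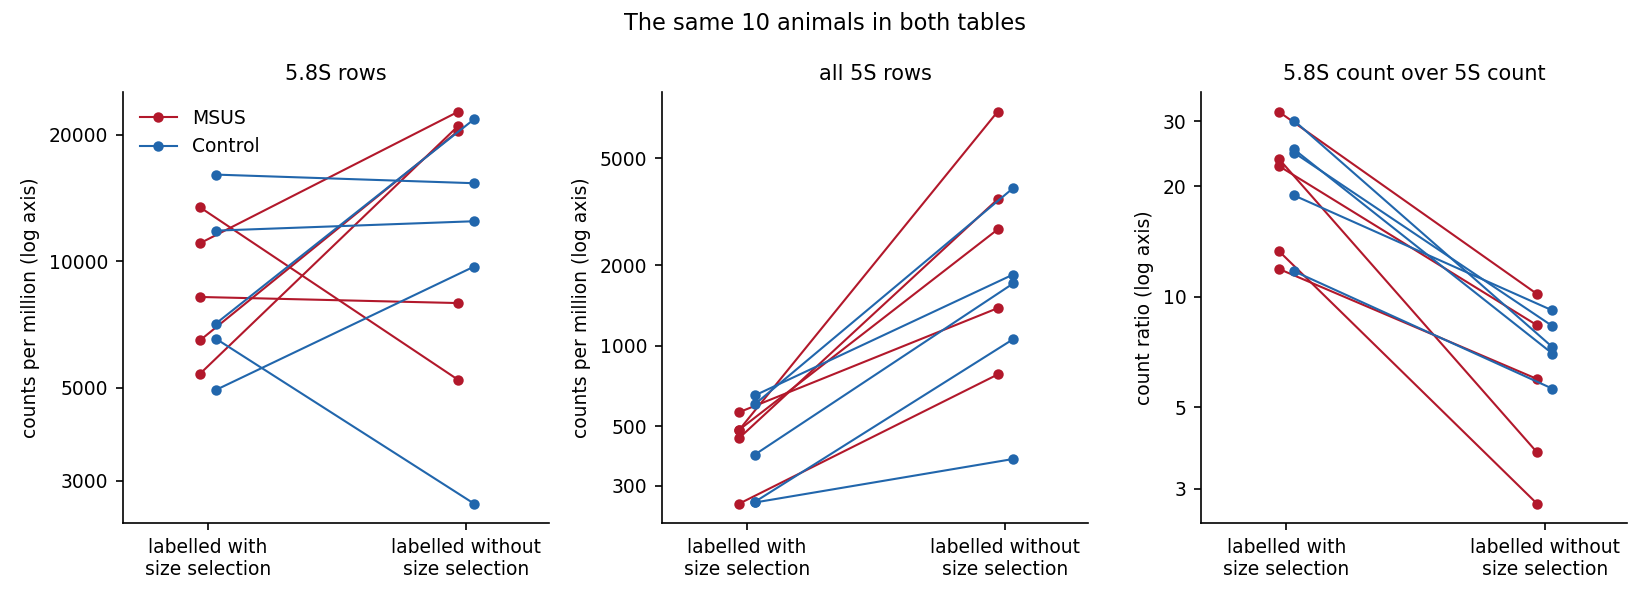
CPM of all 5.8S rows (left), CPM of all 5S rows (middle) and the ratio of 5.8S to 5S counts (right) in the 2 tables, on logarithmic axes, with a line for each of the 5 MSUS (red) and 5 Control animals (blue). The sum of all 5S rows is lower in the with-selection table in all 10 animals, and 5.8S has no common direction. The ratio ranges from 11.7 to 31.9 in the first table and from 2.73 to 10.2 in the second.

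The 2 leading 5S rows varied together across the 10 libraries. The CPM of n-R5s5_n-R5s52 and n-R5s151, as log2 with 0.5 added, correlated at Pearson's r = 0.92 and Spearman's rho = 0.93 in the with-selection table (permutation p = 0.00022 and 0.00027, adjusted 0.00088 and 0.00108 over 8 relations). For the without-selection table r was 0.98 and rho 0.99 (permutation p = 1e-05 and 2e-05, adjusted 8e-05 and 0.00016). Both hold without the 2 libraries farthest from the median, at r = 0.93 and 0.96. The rows share a library and its total, and similar sequences. 5.8S and n-R5s151 had r = 0.60 and rho = 0.61 in the first table (permutation p = 0.0699 and 0.0657, adjusted 0.0932 and 0.105) and r = 0.87 and rho = 0.84 in the second (permutation p = 0.0006 and 0.0038, adjusted 0.0016 and 0.0101). Without the 2 farthest libraries r was 0.31 and 0.84. Over the 7 libraries other than Control 9, Control 11 and MSUS 14, r between the 2 leading 5S rows was 0.89 and 0.96 in the 2 tables, and r between 5.8S and n-R5s151 0.43 and 0.69.

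Between the tables the rows of an animal were compared in the same way. n-R5-8s1 correlated between the tables at r = -0.01 and rho = -0.08 over the 10 animals (permutation p = 0.975 and 0.837, the same after adjustment), and r was 0.14 without the 2 farthest. n-R5s151 had r = 0.66 and rho = 0.56 (permutation p = 0.0367 and 0.096, adjusted 0.0734 and 0.128) and n-R5s194 r = 0.59 and rho = 0.70 (permutation p = 0.0667 and 0.0325, adjusted 0.0932 and 0.0649). For n-R5s5_n-R5s52 r was 0.55 and rho 0.52 (permutation p = 0.0961 and 0.134, adjusted 0.11 and 0.153). None of the relations between tables passed the adjusted threshold of 0.05. Over the 7 animals other than Control 9, Control 11 and MSUS 14, r was -0.11 for n-R5s151, -0.33 for n-R5s5_n-R5s52, 0.37 for n-R5s194 and -0.58 for n-R5-8s1.

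The MSUS effect was also set against itself between the tables, over the 8109 rows that passed the filter among 54796 present in both. The effect in the with-selection table minus that in the without-selection table ranged from -1.19 (SE 1.24) for n-R5s71 to -0.06 (SE 0.69) for n-R5-8s1 on the log2 scale. This fit did not pair the libraries of the same animal. In the without-selection table n-R5s71 had a mean of 8.6 counts in MSUS and 3 in Control libraries. It thus passed the member rule through MSUS, and its difference draws on the values that the rule used. No row was called (0% called; 223 at an unadjusted p below 0.05 by edgeR), and the adjusted p of all 8 members was 1.00. All 8 differences were negative, against a median of 0.11 for all rows tested, but 5 were positive in the fit that left out MSUS 2. The members share libraries and were picked by their counts in the without-selection table, so this tally is description only. The differences of n-R5-8s1, n-R5s151 and n-R5s194 were -0.06, -0.63 (SE 0.93) and -0.76 (SE 0.97).

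Other rRNA fragments were not called either. mt-Rnr2, the large rRNA of the mitochondrial ribosome, averaged 7568 ± 1853 CPM in MSUS and 7662 ± 1510 CPM in Control libraries of the with-selection table (SD, n = 5 each), with a log2 fold change of 0.85 under TMM (SE 0.39, adjusted p = 0.859 by edgeR). mt-Rnr1, the small one, had 1.07 (SE 0.40, adjusted p = 0.839 by edgeR). Gm42418, a noncoding transcript annotated over a rRNA-related sequence, had the smallest p of this list in the without-selection table, with 1147 ± 391 CPM in MSUS and 830.0 ± 212 CPM in Control libraries (log2 fold change 0.72, SE 0.31, adjusted p = 0.554 by edgeR). Under TMM all 4 rows of this list with counts had positive values in the first table and 3 of 4 in the second. In mean CPM mt-Rnr2 and Gm26917, also of this list, were lower in MSUS in both tables, and mt-Rnr1 and Gm42418 higher. Rn18s, Rn28s1 and Rn45s of the list had no row, so 18S and 28S rRNA were not examined under their own names.

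Of the messenger RNA fragments of proteins that act on 5S and 5.8S rRNA, no list had a called member in either table. Of 9 genes of the 5S particle and its chaperones 7 were tested in the with-selection table, with a median log2 fold change of 0.03 against 0.00 for all rows. Ssb, the La protein that binds new polymerase III transcripts, was the most abundant at 54.3 ± 23.4 CPM in MSUS and 84.1 ± 20.2 CPM in Control libraries (log2 fold change -0.04, SE 0.11), and Rpl11 had the smallest p (0.16, SE 0.13). Of 26 genes of 5.8S and pre-rRNA processing 18 were tested, with a median of 0.05, led by nucleolin, Ncl (0.08, SE 0.14), and with the smallest p for Isg20l2, an exonuclease of 5.8S end formation in human cells (0.49, SE 0.24).

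Of 23 RNA polymerase III genes 19 were tested, with a median of -0.13. Polr3b, a catalytic subunit, was the most abundant (-0.08, SE 0.17), and Gtf3c5, of the factor that binds polymerase III promoters, had the smallest p (-0.56, SE 0.29, adjusted p = 0.879 by edgeR). All 9 ribosomal proteins that neighbour 5.8S rRNA were tested, with a median of 0.10, led by Rpl4 (0.06, SE 0.11) and with the smallest p for Rpl39 (0.24, SE 0.12). Of the angiogenin list, Rnh1, the inhibitor of that RNA-cleaving enzyme, was the only gene tested (0.03, SE 0.12). Only Ncl and Rpl4 of these lists passed the filter in the without-selection table, with log2 fold changes of -0.14 (SE 0.22) and -0.21 (SE 0.25).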

How the data were processed

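The authors deposited 2 tables of estimated counts per annotated RNA, 1 per sequencing run, for 10 animals; the submitters' processing notes name GRCm38, STAR and edgeR, and the assignment of reads to rows is not stated in the labels. Estimated counts were rounded, a loss of 0.0504 to 0.0992% (with-selection table) and 0.266 to 0.689% (without-selection table). Each table was fitted whole in edgeR 4.0.16 (R 4.3.3) with filterByExpr, TMM, the quasi-likelihood test (robust) and Benjamini-Hochberg adjustment at 0.05; DESeq2 1.42.0, other scalings, no filter, no rounding, summed rows, other member thresholds and left-out libraries were alternatives. The SE came from the F statistic. The difference between tables was a contrast over 20 samples. Its animals are the same in both tables, per the labels: deviations over 8109 rows correlated at 0.0418 to 0.352 within an animal, 8 of 10 animals matched themselves best, and the highest value between animals was 0.168. 5S genes were aligned globally to the tandem sequence (match 1, mismatch -1, gap opening -2, extension -1). Correlations used 100000 permutations. On simulated counts the fit recovered 77% of 100 rows changed 4-fold and 21% of 100 changed 2-fold in the with-selection table. The shares were 62% and 26% in the other, and 45% and 4% for the difference between tables. The simulation gave every row the same fixed dispersion, not a value estimated from these data. Recovery at the spread of the member rows can therefore differ and was not tested. All 8 members are named; from each gene list the most abundant gene, the one with the smallest p and any called gene. Members and lists were chosen with earlier results of these data known. Gene sequences are not reported here.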

Additional observations from a re-analysis of the deposited data

Results flagged for a closer look

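Dixon's test for a single library far from the others was applied to 44 sets of 5 libraries. Of these 44 sets 5 stood out, where chance flags about 5% of sets. In the without-selection table MSUS 2 was far above the other MSUS libraries for n-R5s62 (83.6 CPM, next 25.3), n-R5s56 (88.3 CPM, next 16.9) and n-R5s71 (97.6 CPM, next 16.9), on 18, 19 and 21 counts. Control 7 was far above the other Control libraries for n-R5s71 in that table (23.9 CPM, next 6.26, on 7 counts) and for n-R5s56 in the with-selection table (4.34 CPM, next 1.96, on 11 counts). The sets share libraries, so these are not independent. MSUS 2 had the smallest library total of the without-selection table, 215231 estimated counts.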

How the results depend on the processing

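In the with-selection table the library total alone turned the log2 fold changes of n-R5-8s1, n-R5s5_n-R5s52, n-R5s151 and n-R5s194 to -0.072, -0.26, -0.043 and -0.023, and that of the summed 5.8S rows to -0.072; scaling by miRNAs turned that of n-R5s5_n-R5s52 to -0.062. The cause was not tested. Without the filter on low counts 1 member, n-R5s210, was called there (1.17). Member thresholds of 2 and 10 mean counts, summed rows, DESeq2, no rounding and each left-out library gave 0 called members in both tables; DESeq2 gave no adjusted p for n-R5s194 and n-R5s210 in the with-selection table. The scalings of the summed rows, and the ratio without Control 9, Control 11 and MSUS 14 (0.27 and 0.55), were added after seeing the data. Rows called numbered 0 with edgeR, 33 with DESeq2, 48 without the filter and 3 with the library total in that table, and 0, 0, 0 and 1 in the other.

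With the replicate block (animal) no row was called between the tables, and the pairing changed no call. The SE were smaller than without the block: n-R5s71 had -1.43 (SE 0.64) and n-R5-8s1 -0.08 (SE 0.46). The value of n-R5s71 is description only, as this row passed the member rule through its MSUS libraries in the without-selection table. Leaving out 1 animal moved the difference between tables over zero for n-R5-8s1 (-0.46 to 0.18), n-R5s151 (-0.99 to 0.045), n-R5s210 (-0.47 to 0.42), n-R5s62 (-0.72 to 0.21) and n-R5s56 (-0.90 to 0.39). With 1 animal left out, the MSUS minus Control difference in the log2 ratio of 5S to 5.8S moved between -0.06 and 0.33 in the with-selection table. In the other table it moved between 0.16 and 0.63. Counts below about 10 per library limit n-R5s62, n-R5s56 and n-R5s71.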
